A study of Mus musculus with 8 samples.

Results

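The genes examined here are 10 that mark smooth muscle and the mural cells of blood vessels. They were Acta2, Tagln, Cnn1, Myh11, Myl9, Tpm2, Myocd, Des, Cspg4 and Rgs5, taken by symbol from the 23284 symbols listed for each library. RNA-sequencing of polyadenylated RNA compared Notch3IC lines with Control lines of ID8 IP2, a mouse ovarian surface epithelial cell line that forms tumors in the peritoneum. The Notch3IC lines were infected with a lentivirus carrying an HA-tagged Notch3 intracellular domain and an IRES GFP, and the Control lines with the empty lentivirus; all lines also carried a lentiviral luciferase and mCherry. Each of 4 independent infections gave a matched Notch3IC and Control line, called Sets 1 to 4, so that there were 4 libraries of each condition and 8 in all. Tests made after the work pointed to mycoplasma in all lines, and it is not given whether a line was 1 clone. The number of a set is also the replicate number, and p-values measure the spread between these separately infected lines.

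Contractile smooth muscle cells slide actin and myosin filaments past each other under the control of calmodulin and myosin light chain kinase. Most of their contractile genes are driven by serum response factor with myocardin or its relatives, which bind CArG boxes. Pericytes are the mural cells of capillaries and share part of this program. In vascular smooth muscle and pericytes Notch3 is a major Notch receptor, and an intracellular domain released from it acts with the DNA-binding protein RBPJ on genes such as Hey1, Hey2, Heyl and Nrarp.

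The library totals ranged from 15524262 counts in the Notch3IC line of Set 2 to 28208072 counts in the Control line of Set 4. Notch3 itself, the targeted gene, was read first. It held 38.7, 40.5, 70.8 and 42.0 normalized counts in the Control lines of Sets 1 to 4, against 4320, 467, 9214 and 5838 in the Notch3IC lines. A normalized count is a count divided by the scaled library total and multiplied by the mean library total. Every Notch3IC line was above every Control line, so the labels held, but the Notch3IC line of Set 2 was the lowest of its group. Reads of the insert and of the cell's own Notch3 cannot be told apart in these counts. Heyl, a Notch target that encodes a repressor, followed the same order of sets with 2154, 215, 6856 and 3907 normalized counts in the Notch3IC lines of Sets 1 to 4, against 0 to 1.98 in the Control lines. All 6 genes of the Notch list were called higher, with log2 fold changes of 6.69 for Notch3, 7.35 for Hey1, 6.86 for Hey2, 11.6 for Heyl, 7.34 for Nrarp, which encodes a feedback inhibitor of Notch signaling, and 3.10 for Jag1, which encodes a Notch ligand (adjusted p 0.0169 to 0.0349 by edgeR). Over all genes tested, 3.40% were called higher. Hey2 and Heyl entered the test through the Notch3IC lines alone, so their calls add nothing to the count of 6.

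Of the 10 smooth muscle and mural cell genes, Cspg4 was called higher in Notch3IC lines and none was called lower. The test was edgeR's quasi-likelihood F test on the 12430 genes with enough counts, and a gene was called when its Benjamini-Hochberg adjusted p was under 0.1 and its log2 fold change reached 1 or -1. By this rule 423 genes, or 3.40% of those tested, were called higher and 92, or 0.740%, were called lower, so that 1 of the 6 members tested stands against a background of 3.40%. The median log2 fold change was 0.98 over the 6 members tested, 5 of which lay above 0, and -0.01 over all genes tested. The members and the gene lists below were chosen with earlier results of these data known. Counts set beside the share of all genes are therefore descriptions, and enrichment was not tested. The other 4 members, Myh11, Myocd, Des and Rgs5, had too few counts to enter the test, for which a gene had to reach the equivalent of 10 counts in a library of median total in at least 4 libraries. When the matched set was added to the fit as a block, Acta2, Tagln and Cnn1 were called higher beside Cspg4, 4 of 6 members against 5.19% of all genes tested, and again none was called lower, against 2.53%. The Notch3IC and Control libraries did not overlap for Cspg4 and Rgs5, that is for 1 of the 6 members tested against 10.8% of all genes tested, and for Rgs5 among the 4 others.

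**Figure D1:**
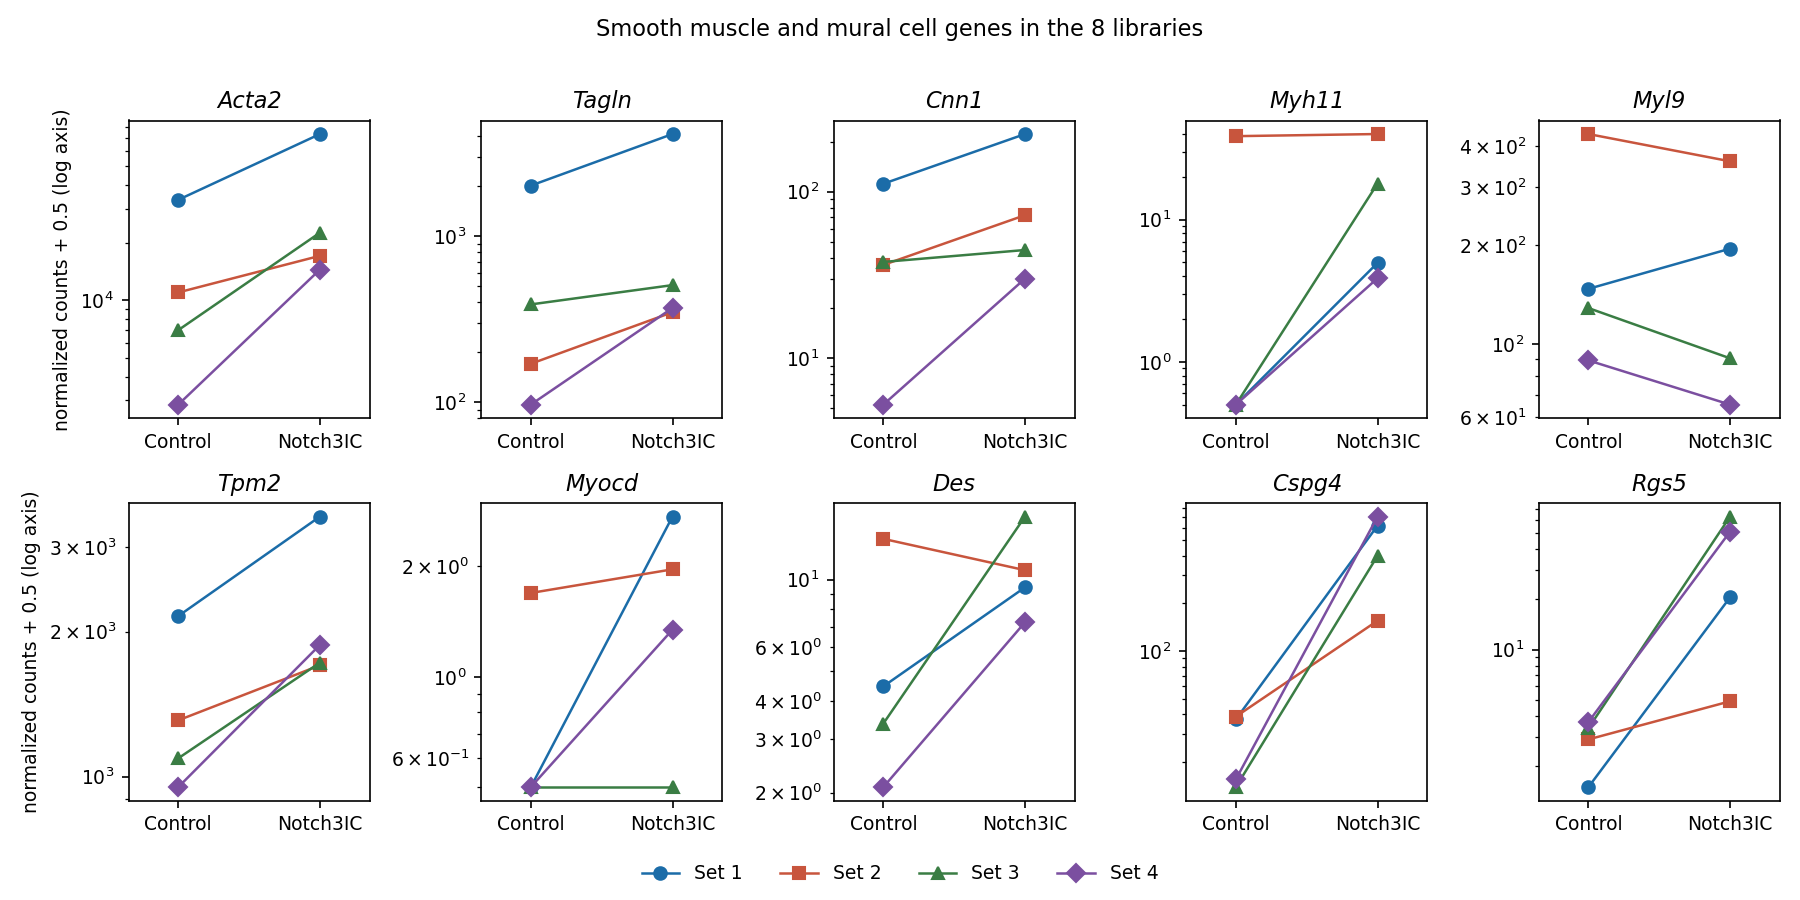
Normalized counts plus 0.5 (log axis, a scale of its own for each gene) of the 10 members in the 8 libraries, with a line joining the Control and the Notch3IC line of each set. Acta2, Tagln, Cnn1 and Tpm2 are highest in Set 1 in both conditions, Myl9 and Myh11 are highest in Set 2 in both conditions, and the conditions do not overlap for Cspg4 and Rgs5.

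Cspg4 encodes NG2, a chondroitin sulfate proteoglycan on the surface of pericytes and of some progenitor and tumor cells. It held 36.7, 38.2, 13.4 and 15.1 normalized counts in the Control lines of Sets 1 to 4, against 618, 155, 399 and 705 in the Notch3IC lines. The lowest Notch3IC line, that of Set 2, was still above the highest Control line. Its mean rose from 25.8 ± 13.4 to 469 ± 246 normalized counts (SD, n = 4 in each group), a log2 fold change of 4.20 with a standard error of 0.57, a 95% interval of 2.90 to 5.50 and an adjusted p of 0.0169 by edgeR. Cspg4 was no longer called when Set 3 or Set 4 was left out, with log2 fold changes of 4.05 and 3.74 and adjusted p of 0.215 and 0.221 by edgeR; in those fits 1 and 0 of all genes tested were called higher. In a bulk library, a change in how many cells express a gene and a change in its RNA per cell cannot be told apart.

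Rgs5 encodes a regulator of G protein signaling that is abundant in pericytes of many vessels. Its counts were low, at 1, 2, 3 and 4 reads in the Control lines of Sets 1 to 4, against 18, 3, 68 and 60 in the Notch3IC lines. In normalized counts these were 0.991, 2.39, 2.87 and 3.17 against 20.1, 4.39, 62.5 and 50.7. The groups did not overlap, but the Set 2 pair lay close together while the other sets were far apart. Summed over the lines, 10 counts stood against 149, a ratio of 16.1 at equal depth with an exact 95% interval of 8.50 to 34.2 that covers counting error only. An exact permutation test of the 4 members under the count limit, two-sided over 70 assignments, gave p = 0.0286 for Rgs5, the smallest that 4 against 4 can give. That p is unadjusted, and Rgs5 did not pass 0.1 once adjusted over the 4 members. The assignments did not keep the matched sets together. The p of Rgs5 and those of the other members under the limit thus ignore the pairing. In fits across all genes that took in its counts, Rgs5 was called higher by edgeR without the count limit (adjusted p 0.0364) and by DESeq2 (0.000371). With a library or set left out it entered the edgeR fit through the Notch3IC lines alone, of which 3 reached the count limit and no Control line did, so these calls do not add support. It was called without the Control line of Set 1 or Set 2 (0.0780 and 0.0891), without the Notch3IC line of Set 2 (0.00370) and without all of Set 2 (0.0141), and not called without the Control line of Set 3 or Set 4 (0.137 and 0.140).

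Acta2 encodes smooth muscle alpha-actin, the actin isoform of the contractile filament, and was the most abundant member. Its normalized counts were 33454, 10989, 6984 and 2852 in the Control lines of Sets 1 to 4, against 73775, 17069, 22549 and 14474 in the Notch3IC lines. The Notch3IC line was the higher of the 2 in every set, but the Control line of Set 1 was above the Notch3IC lines of Sets 2, 3 and 4. Among the Control lines alone, Acta2 spanned 11.7-fold from Set 4 to Set 1. With condition alone the log2 fold change was 1.24 with a standard error of 0.79, a 95% interval of -0.57 to 3.04 and an adjusted p of 0.462 by edgeR, so the difference did not exceed the spread between lines; it was 2.20 without the Control line of Set 1 and 0.43 without its Notch3IC line, and was called in neither. Blocking on the set gave 1.45 with a standard error of 0.28, a 95% interval of 0.75 to 2.15 and an adjusted p of 0.0362. The blocked call was lost without Set 1, Set 3 or Set 4, where the log2 fold change lay between 1.16 and 1.56 and the adjusted p between 0.114 and 0.174. Acta2 lies at chr19:34241090-34255590 on the minus strand of GRCm38, and none of its 100-base windows occurs in a transcript of another gene, the other actins included. Of the striated muscle actins, Actc1 had 0 counts in every library and Acta1 at most 6.

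Promoter windows of Acta2 and Cnn1, whose calls depended on the block, of Cspg4, which was called by both fits, and of Myl9, which was called by neither, are printed to set their starts side by side. Each runs from 250 bases before to 50 bases after the start in RefSeq (GRCm38.p6), where 7 of the 10 members had a window and Tagln, Myh11 and Myocd had none. Capitals mark matches, on either strand, to the CArG box, to the CArG box with at most 1 G or C in its core, to TGGGAA, the core that RBPJ binds, and to CATTCC, the MCAT element.
Acta2, minus strand, chr19:34255324-34255623: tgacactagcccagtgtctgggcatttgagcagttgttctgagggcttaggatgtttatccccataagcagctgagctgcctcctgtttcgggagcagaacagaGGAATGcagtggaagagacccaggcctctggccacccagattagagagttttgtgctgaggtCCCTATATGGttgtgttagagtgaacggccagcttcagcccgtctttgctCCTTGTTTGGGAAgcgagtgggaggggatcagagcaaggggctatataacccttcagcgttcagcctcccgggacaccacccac
Cnn1, plus strand, chr9:22099003-22099302: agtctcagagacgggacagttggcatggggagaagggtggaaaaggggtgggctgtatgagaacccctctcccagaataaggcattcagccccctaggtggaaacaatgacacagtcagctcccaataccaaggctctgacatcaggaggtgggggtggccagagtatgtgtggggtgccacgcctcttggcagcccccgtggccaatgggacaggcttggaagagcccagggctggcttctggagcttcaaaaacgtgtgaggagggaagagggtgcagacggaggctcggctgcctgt
Cspg4, plus strand, chr9:56864854-56865153: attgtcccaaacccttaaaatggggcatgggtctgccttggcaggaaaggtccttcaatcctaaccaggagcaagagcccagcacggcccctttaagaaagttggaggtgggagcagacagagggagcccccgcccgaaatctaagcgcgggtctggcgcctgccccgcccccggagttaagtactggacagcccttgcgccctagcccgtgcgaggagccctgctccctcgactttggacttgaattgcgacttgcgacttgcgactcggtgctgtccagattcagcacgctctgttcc
Myl9, plus strand, chr2:156775214-156775513: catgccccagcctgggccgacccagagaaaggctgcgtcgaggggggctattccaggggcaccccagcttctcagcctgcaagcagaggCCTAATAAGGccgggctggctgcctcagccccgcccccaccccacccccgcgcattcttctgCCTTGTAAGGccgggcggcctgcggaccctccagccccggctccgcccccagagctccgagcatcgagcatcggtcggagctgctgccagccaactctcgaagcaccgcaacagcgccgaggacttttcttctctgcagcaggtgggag
The Acta2 window held 2 CArG boxes with 1 G or C in the core, at -84 to -75 and at -34 to -25 from the start. Its TGGGAA lay at -27 to -22 and shared 3 bases with the second of these, and its MCAT element, read on the opposite strand as GGAATG, lay at -146 to -141. These Acta2 positions count from the RefSeq start. GENCODE places the upstream end of the gene at 34255590, inside the window and before that start, so the numbering depends on the start used. The Myl9 window held an exact CArG box at -161 to -152 and a CArG box with 1 G or C in the core at -99 to -90. No match to these 4 patterns was found in the windows of Cnn1, Cspg4, Des, Rgs5 and Tpm2. Among 32851 windows of the same length, 1.63% held an exact CArG box, 9.98% a CArG box with at most 1 G or C in its core, 25.6% TGGGAA and 14.7% CATTCC. Matches of letters describe these windows and were not tied to the counts by any test.

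Tagln encodes transgelin, or SM22 alpha, an actin-binding protein of smooth muscle. It held 2010.2, 169, 387 and 95.9 normalized counts in the Control lines of Sets 1 to 4, against 4113, 347, 505 and 368 in the Notch3IC lines. Set 1 stood far above the other sets in both conditions, and the Notch3IC line was the higher in every set. The log2 fold change was 1.00 with a standard error of 1.14 and an adjusted p of 0.706 by edgeR with condition alone, and it turned to -0.69 without the Notch3IC line of Set 1. With the block it was 1.07 with a standard error of 0.24 and an adjusted p of 0.0451, a call that was lost without Set 1, Set 3 or Set 4 (adjusted p 0.104 to 0.154). Over the blocked fits that left out a set, the log2 fold change lay between 0.82 and 1.31. Tagln lies at chr9:45929619-45936058 on the minus strand, and 67.9% of its exon bases overlap Pcsk7 and Gm48529 on the opposite strand. The strand setting of the counting is not given in the sources used here, so reads of these genes may not be separated. Pcsk7, a proprotein convertase gene named here for this overlap, ranged from 862 to 1244 normalized counts. It was the higher in the Notch3IC line of every set without overlap between conditions, with a log2 fold change of 0.27 and an adjusted p of 0.185 by edgeR, or 0.0681 with the block. From Control to Notch3IC line, Pcsk7 went from 950 to 1244, 935 to 987, 871 to 1109 and 862 to 1014 normalized counts in Sets 1 to 4. Over the same sets Tagln went from 2010.2 to 4113, 169 to 347, 387 to 505 and 95.9 to 368. The part of Pcsk7 in the Tagln counts was not tested.

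Cnn1 encodes calponin 1, which binds actin and tropomyosin in differentiated smooth muscle. Its normalized counts were 111, 35.8, 37.3 and 4.75 in the Control lines of Sets 1 to 4, against 221, 71.7, 44.1 and 29.5 in the Notch3IC lines. Set 1 was highest and Set 4 lowest in both conditions, and the conditions overlapped. With condition alone the log2 fold change of Cnn1 was 0.96 with a standard error of 0.88 and an adjusted p of 0.631 by edgeR, and it was 0.04 without the Notch3IC line of Set 1 and 1.83 without its Control line. With the block it was 1.04 with a standard error of 0.33 and an adjusted p of 0.0849, and this call too was lost without Set 1, Set 3 or Set 4 (adjusted p 0.154 to 0.234). With a set left out, its blocked log2 fold change lay between 0.77 and 1.34.

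Tpm2 encodes beta-tropomyosin, which winds along the actin filament. It held 2155, 1308, 1091 and 950.2 normalized counts in the Control lines and 3470.0, 1702, 1725 and 1878 in the Notch3IC lines. Every set had more Tpm2 in its Notch3IC line, although the Control line of Set 1 was above the Notch3IC lines of the other sets. Its log2 fold change of 0.67 had a standard error of 0.32 and an adjusted p of 0.307 by edgeR, and it was 0.37 and 0.97 without the Notch3IC and the Control line of Set 1. With the block the adjusted p was 0.0264, but the log2 fold change of 0.68, with a 95% interval of 0.43 to 0.92, stayed under the limit of 1 for a call.

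**Figure D2:**
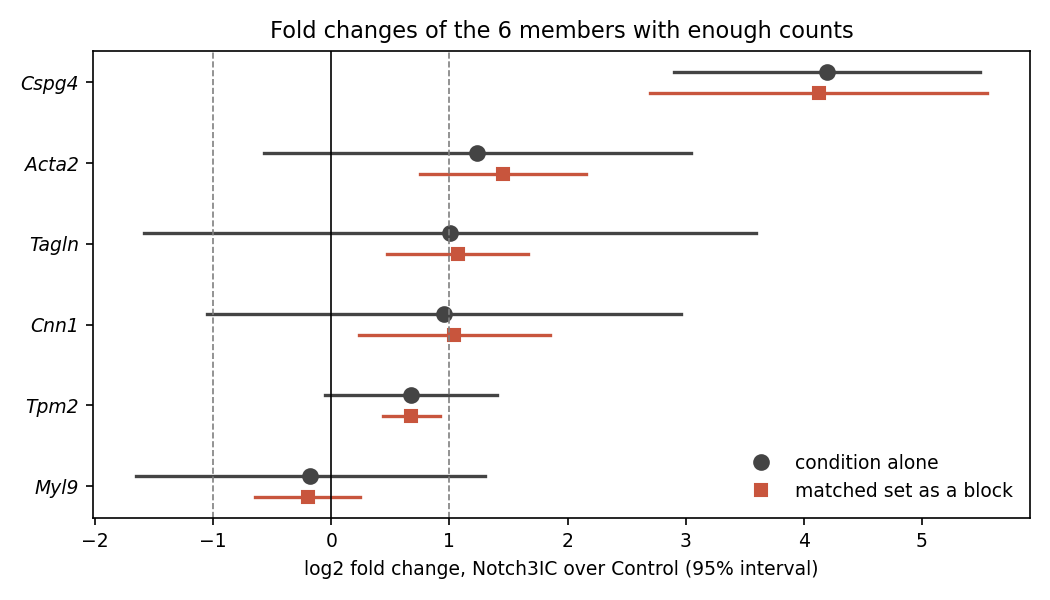
Log2 fold changes of Notch3IC over Control for the 6 members tested, with 95% intervals, by edgeR with condition alone (circles) and blocked on the matched set (squares); dashed lines mark the limit of 1 in either direction. The intervals of Acta2, Tagln, Cnn1 and Tpm2 include 0 with condition alone and lie above 0 with the block, and only that of Cspg4 lies wholly above 1.

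Myl9, the regulatory light chain of smooth muscle myosin, was called by neither fit. Its normalized counts were 147, 434, 128 and 88.8 in the Control lines of Sets 1 to 4, against 195, 359, 90.1 and 65.0 in the Notch3IC lines. The Notch3IC line was the lower of the pair in Sets 2, 3 and 4 and the higher in Set 1, and both lines of Set 2 were above all others. The log2 fold change was -0.18 with a standard error of 0.65 and an adjusted p of 0.925 by edgeR. With the block it was -0.20 with a 95% interval of -0.64 to 0.25, and its direction with condition alone depended on which library was left out.

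Myh11, the heavy chain of smooth muscle myosin and the most restricted marker of the lineage, was low outside Set 2. It held 0, 32, 0 and 0 counts in the Control lines of Sets 1 to 4, against 4, 27, 19 and 4 in the Notch3IC lines. Set 2 had similar normalized counts in both conditions, 38.2 and 39.5, whereas in the other sets counts were found in the Notch3IC line alone. The exact permutation p over all lines was 0.457, and of the fits that took in its counts, DESeq2 with the set as a block called it higher, at an adjusted p of 0.0356. A Control line with 0 counts allows up to 3 counts at this depth.

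Des encodes desmin, the intermediate filament of muscle cells. Its counts were 4, 11, 3 and 2 in the Control lines and 8, 7, 17 and 8 in the Notch3IC lines, overlapping between conditions, with an exact permutation p of 0.2. Myocd encodes myocardin, the coactivator that turns on smooth muscle contractile genes. A total of 1 count in the Control lines, in Set 2, stood against 4 in the Notch3IC lines, of which 2 were in Set 1, 1 in Set 2, 0 in Set 3 and 1 in Set 4. With 1 count against 4 a difference was not detectable at this depth (exact permutation p = 0.257).

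Read within sets, 35 of the 40 log2 ratios of Notch3IC over Control were above 0. Some of these rest on few reads and the pseudocount of 0.5, such as Myocd with 1 read against 0 in Set 4. For the 6 members tested, 21 of 24 ratios were above 0, where 48.4% to 52.1% were in each set over all genes tested. Set 1 had all 10 members above 0, Set 4 had 9, and Sets 2 and 3 had 8 each. Exceptions were Myl9 in Sets 2, 3 and 4, Des in Set 2, and Myocd in Set 3, where neither line had a count. Ratios were smallest in Set 2 for Acta2, Myh11, Tpm2, Des, Cspg4 and Rgs5, at 0.64, 0.05, 0.38, -0.34, 2.01 and 0.76. They were largest in Set 4 for Acta2, Tagln, Cnn1, Tpm2 and Cspg4, at 2.34, 1.94, 2.52, 0.98 and 5.50. Set 4 also had the lowest Control value of Acta2, Tagln, Cnn1, Myl9, Tpm2 and Des. The Notch3IC line of Set 2 had the least Notch3, as given above, and the part of this in its ratios was not tested.

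**Figure D3:**
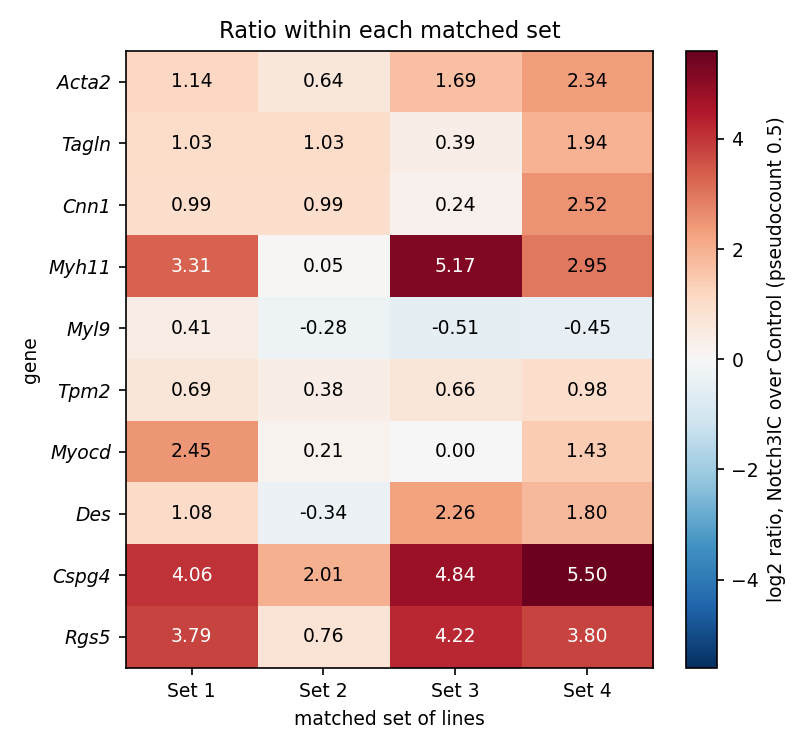
Log2 ratio of Notch3IC over Control within each matched set (columns) for each member (rows), with a pseudocount of 0.5 on normalized counts; red is above 0 and blue below. Cspg4 is above 2 in every set, Rgs5 is near 4 in every set but Set 2, and Myl9 is below 0 in 3 of 4 sets.

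Levels can be compared between genes only per length. In CPM per kilobase of exon, Acta2 stood at 265 ± 267 in Control and 624 ± 548 in Notch3IC lines (SD, n = 4 each), against 761 ± 225 and 855 ± 162 for Actb, the cytoplasmic actin of all cells. Tpm2 followed at 20.3 and 32.3, Tagln at 14.3 and 28.7, Myl9 at 7.36 and 6.53, and Cnn1 at 0.740 and 1.44. Cspg4 moved from 0.0927 to 1.69, and Rgs5 from 0.0222 to 0.324. Des, Myh11 and Myocd stayed under 0.15 in both conditions. In the order of levels, Tpm2 and Tagln (± 7.95 and 19.5 in Control lines) and Tagln and Myl9 (± 5.84) differed by less than their spread, as did Cnn1 and Cspg4 in the Notch3IC lines (± 1.38 and 0.883).

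The genes whose log2 CPM (prior count 2) ran most like those of Acta2 over the 8 libraries were Crtap (Pearson r = 0.987), Mex3a (0.986), Hhipl1 (0.980), Nr2f6 (0.980) and Rbms2 (0.978). None of these 5 was called. These are the highest of all genes tested over libraries that share their lines and depth, and are given as a description.

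Contractile and associated genes outside the 10 were read from a list of 24, of which 17 were tested. Ldb3, which encodes a Z-disc protein of striated muscle, was called higher, and none was called lower. It went from 9.58 ± 3.58 to 42.2 ± 8.61 normalized counts (log2 fold change 2.13, adjusted p 0.0245 by edgeR). Its call was kept in 10 of 12 fits with a library or set left out. Ldb3 reached the count limit in 4 Notch3IC and 2 Control lines, so its entry into the test leaned on the group where it was high. Of the 17, 16 had a log2 fold change above 0, with a median of 0.56. These 1 of 17 stand against 3.40% of all genes tested. With the block 5 were called higher, against 5.19%, adding Actg2, the enteric smooth muscle actin, Mylk, the myosin light chain kinase, Tgfb1i1, a coactivator also known as Hic-5, and the focal adhesion gene Tns1. Their blocked log2 fold changes were 1.93, 1.14, 1.61 and 1.37 at adjusted p of 0.0627, 0.0395, 0.0297 and 0.0772 by edgeR. The most abundant of the list per kilobase were Tpm1, Cald1 and Csrp1, with log2 fold changes of 0.27, 0.46 and 0.70. Csrp1, a LIM protein of smooth muscle, had an adjusted p of 0.0497 but stayed under the fold limit. Ppp1r14a, which encodes the smooth muscle phosphatase inhibitor CPI-17 and is named after its values were seen, held 0, 0, 1 and 0 counts in the Control lines of Sets 1 to 4, against 18, 2, 223 and 95 in the Notch3IC lines, most of them in Set 3, and did not enter the test. Kcnmb1, a potassium channel subunit of smooth muscle, had 0 counts in every library.

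The regulators of smooth muscle genes went both ways. Of 18 listed, 17 were tested, their median log2 fold change was 0.10, and Prrx1, a homeobox factor of mesenchyme, was called higher (2815 ± 1582 to 10908 ± 5243 normalized counts, log2 fold change 1.95, adjusted p 0.0604 by edgeR, called in 6 of 12 fits with a library or set left out). Srf, the serum response factor, and its coactivators Mkl1 and Mkl2 had log2 fold changes of 0.23, 0.13 and 0.21, none called by either fit. Smad3 and Tead1, with Srf the most abundant of the list per kilobase over all libraries, stood at -0.26 and 0.20. With the block Fhl2 was also called higher, while Klf4 and Klf5, which encode factors linked to the non-contractile state, and Gata6 were called lower, with blocked log2 fold changes of -1.47, -1.16 and -1.01 at adjusted p of 0.0696, 0.0736 and 0.0348. The 1 of 17 called higher stands against 3.40% of all genes tested, and with the block 2 higher and 3 lower stand against 5.19% and 2.53%.

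Mural cell and pericyte genes outside the 10 included several calls. Of 22 listed, 17 were tested, 7 were called higher (against 3.40% of all genes), and none was called lower. As the list was chosen with earlier results of these data known, these shares are a description. Pdgfrb, the PDGF receptor that recruits pericytes, held 94.2, 205, 33.5 and 29.3 normalized counts in the Control lines of Sets 1 to 4, against 3470.0, 1837, 7744 and 9507 in the Notch3IC lines. It thus showed the same absence of overlap as Cspg4, with a log2 fold change of 5.99, a standard error of 0.83 and an adjusted p of 0.0169 by edgeR. Ednra, the endothelin receptor of smooth muscle, rose from 1.58 ± 1.34 to 223 ± 195 normalized counts, and Mcam, the adhesion molecule CD146, from 34.2 ± 16.6 to 453 ± 243. Ednra reached the count limit in the Notch3IC lines alone, so it could enter the test only by being high there, and its call adds nothing to the count for the list. The other calls were Foxc1, Ndufa4l2, Nes and S1pr3, at log2 fold changes of 1.32, 2.19, 3.17 and 1.77. Enpep and Gucy1a3 joined them with the block, 9 of 17 against 5.19%. Both the 7 and the 9 include Ednra, and are to be read without it. Cspg4, Pdgfrb and Ednra were called in 10 of 12 fits that left out a library or a set, Mcam and Foxc1 in 8, and Ndufa4l2, Nes and S1pr3 in 3; none was called without Set 3 or without Set 4. Other genes used to recognize pericytes were not called: Kcnj8, Rgs4, Pde5a, Gja4, Angpt1 and Anpep were called by neither fit, the transcription factor genes Tbx18 and Foxf2 had log2 fold changes of -0.43 and -0.82, Abcc9, Gucy1b3, Higd1b and Vtn were too low to test, and Zic1 had 0 counts in every library.

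Genes of the actin cytoskeleton of all cells were read beside Acta2, Tagln and Cnn1. All 19 genes listed were tested, none was called by either fit, against 3.40% of all genes called higher and 0.740% lower (5.19% and 2.53% with the block), and their median log2 fold change was 0.14. At those shares a count of 0 in 19 is near the background. Actb, Cfl1 and Tagln2, the most abundant, stood at 0.17, 0.09 and 0.31. The non-muscle counterparts Cnn2 and Cnn3 of Cnn1 stood at 0.57 and -0.02, and Myh9 and Myh10, the non-muscle myosins, at 0.71 and 0.72.

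**Figure D4:**
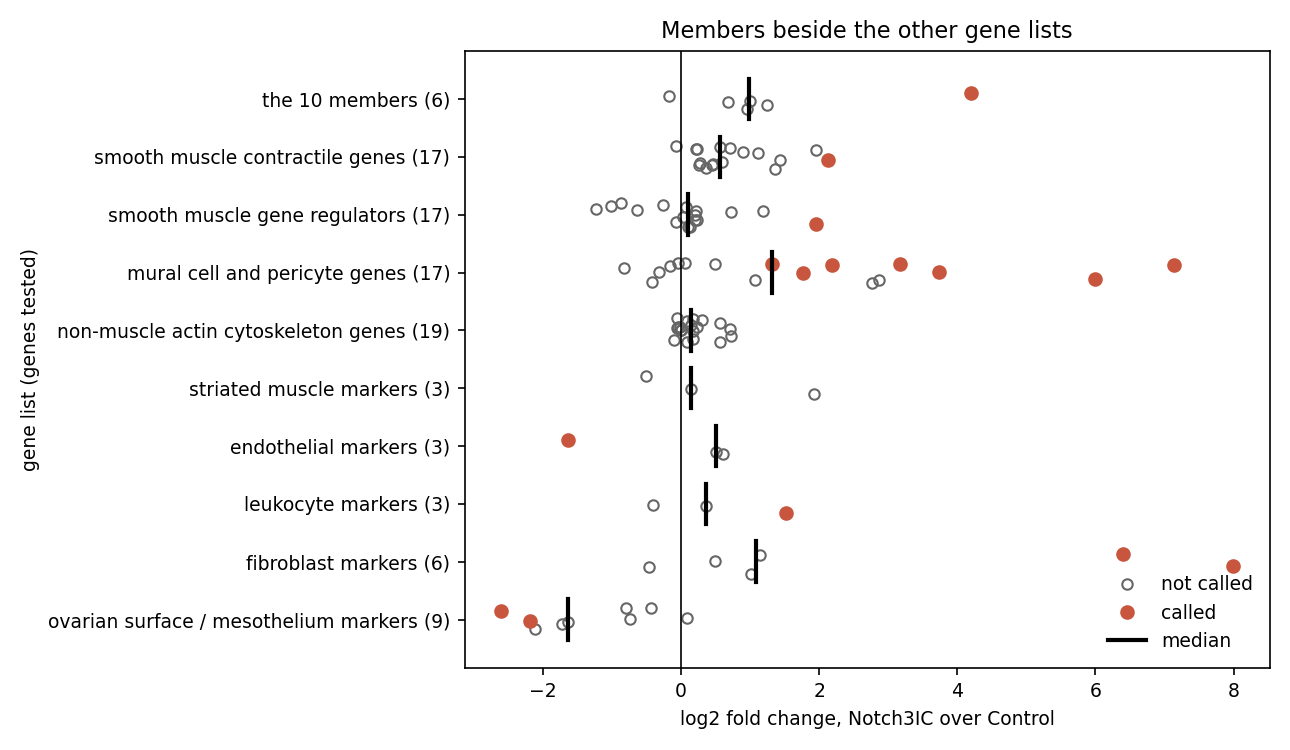
Log2 fold change of Notch3IC over Control, with condition alone, for every tested gene of each list, with the number tested in brackets; filled points were called, open points were not, and bars mark medians. The median of the members is 0.98, that of the mural cell and pericyte list 1.32, that of the non-muscle actin cytoskeleton 0.14 and that of the ovarian surface and mesothelium markers -1.64.

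Markers of other cell types were read in the same libraries. The line is labelled ovarian surface epithelium, and most of its defining genes were present: Upk3b, Krt19 and Wt1, the most abundant over all libraries, stood at 265, 103 and 85.3 CPM per kilobase in the Control lines. Krt7 was an exception, with 5, 2, 46 and 7 counts in the Control lines of Sets 1 to 4, against 1, 1, 2 and 2 in the Notch3IC lines, too few to test. Of 9 such markers tested 8 had a log2 fold change below 0. Msln, which encodes mesothelin, was called lower (2348 ± 1152 to 389 ± 290 normalized counts, log2 fold change -2.60, adjusted p 0.0625 by edgeR), as was the uroplakin gene Upk1b (-2.19, adjusted p 0.0762), in 6 and 5 of the 12 fits that left out a library or set. Krt19, Lrrn4 and Upk3b were called lower only with the block, which made 5 of 9 against 2.53% of all genes tested, and 2 of 9 against 0.740% with condition alone. The summed level of the list was lower in the Notch3IC line of every set, at 32019, 49706, 77292 and 73602 normalized counts in the Control lines and 15187, 32829, 30728 and 25242 in the Notch3IC lines. In the Control lines this sum was lowest in Set 1, where Acta2, Tagln and Cnn1 were highest. Whether these shifts had a part in the values of the smooth muscle genes was not tested.

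**Figure D5:**
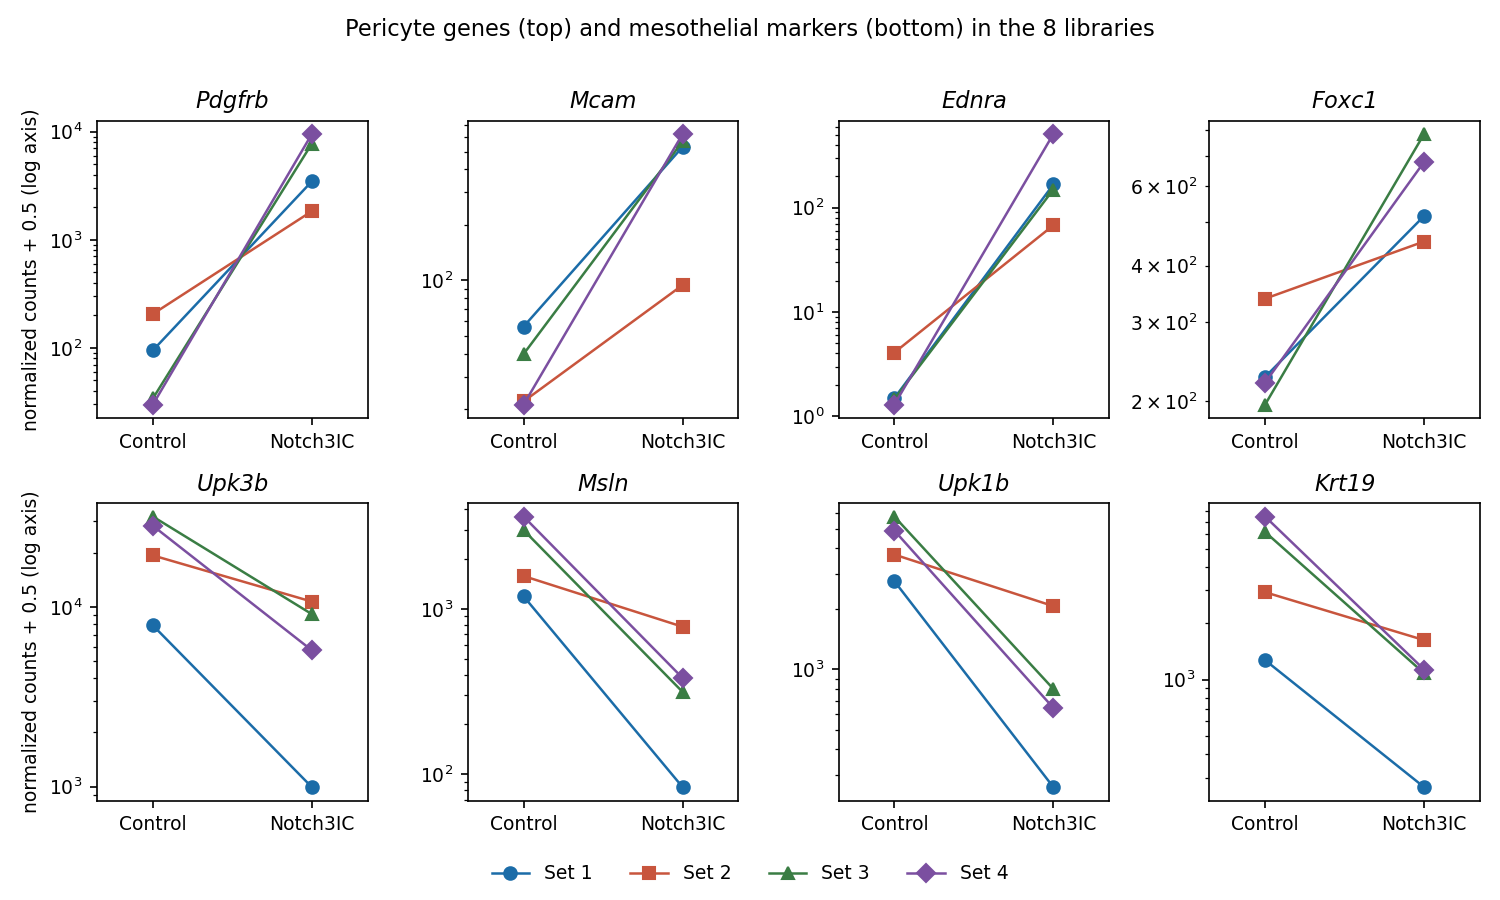
Normalized counts plus 0.5 (log axis, a scale of its own for each gene) of 4 pericyte genes and 4 mesothelial markers, picked after their values were seen, with a line joining the lines of each set. Pdgfrb, Mcam, Ednra and Foxc1 are higher and Upk3b, Msln, Upk1b and Krt19 lower in the Notch3IC line of every set, with the flattest lines in Set 2 for most. Of the 17 pericyte genes tested, 5 had a log2 fold change below 0, and Tbx18 and Foxf2 were lower in every set. Of the 9 mesothelial markers tested, 1, Cdh2, was above 0.

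Fibroblast markers moved in part. Of 6 tested out of 10, Fap and Postn were called higher, from 2.37 ± 2.54 to 589 ± 553 and from 21.8 ± 28.0 to 1825 ± 1608 normalized counts and in 8 of 12 fits with a library or set left out, while Col1a1, Col1a2 and Dcn, the most abundant, had log2 fold changes of 1.01, 1.15 and -0.47. Fap reached the count limit in the Notch3IC lines alone and Postn in 2 of the 4 Control lines, so their entry into the test leaned on the group where they were high. Both collagen genes were called higher with the block. The 2 of 6 called stand against 3.40% of all genes tested, and the 4 of 6 with the block against 5.19%. Both counts include Fap, whose call adds nothing to them, and are to be read without it. Dpt, Lum and Thy1 were near 0, and Mfap5 had 0 counts in every library. The summed level of the list, most of it Col1a1, was the higher in the Notch3IC line of every set, and its part in the results was not tested.

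Markers of skeletal and cardiac muscle were mostly too low to test. Of 21 listed 3 were tested and none was called with condition alone, against 3.40% of all genes called higher, and Myod1, Myog, Actc1 and Myh7 had 0 counts in every library. Mylpf, the light chain of fast skeletal muscle myosin and the most abundant, stood at 2.11 CPM per kilobase in Control and 1.47 in Notch3IC lines, and Tnnc1 and Tnnc2 at most at 0.622. Tnnt2, the cardiac troponin T gene, at 31.1 ± 48.7 and 118 ± 80.1 normalized counts, was called higher with the block alone (log2 fold change 2.52, adjusted p 0.0680 by edgeR), 1 of 3 against 5.19% of all genes tested. Tnnt2 reached the count limit in 4 Notch3IC and 2 Control lines, so its entry into the test leaned on the group where it was high. Ryr1, the skeletal muscle calcium release channel, held 0, 6, 0 and 4 counts in the Control lines of Sets 1 to 4, against 14, 5, 97 and 62 in the Notch3IC lines, without entering the test, and is named after its values were seen. Its 2 lines of Set 2 were alike, and Set 3 held most of its counts.

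Endothelial and leukocyte markers were also mostly too low to test. Among 10 endothelial genes Cldn5 had 0 counts, Cdh5, Tek, Tie1 and Emcn had at most 3 in any library, and of the 3 tested Pecam1 and Kdr were not called. Esam, an adhesion molecule of cell junctions, was called lower (954 ± 292 to 306 ± 145 normalized counts, log2 fold change -1.64, adjusted p 0.0596 by edgeR, in 6 of 12 fits with a library or set left out), 1 of 3 against 0.740%. Among 10 leukocyte genes Cd3e and Emr1 had 0 counts, Ptprc had at most 2, and Cd68 and Coro1a, the most abundant, were not called. Csf1r, the receptor of macrophage colony-stimulating factor, was called higher at low counts (8.67 ± 2.38 to 24.7 ± 11.0, log2 fold change 1.52, adjusted p 0.0719 by edgeR, in 3 of 12 such fits), 1 of 3 against 3.40%, with 1 of the 4 Control lines at the count limit. It lies 20504 bases from Pdgfrb in RefSeq (GRCm38.p6), and whether its counts depended on that gene was not tested.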

How the data were processed

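The 8 RNA-sequencing libraries came from 4 Control and 4 Notch3IC lines. The deposited values were counts of reads per gene symbol, whole numbers made by the authors without normalization; the submitters' processing notes name TopHat, Cufflinks, DESeq and mm9. The annotation and strand setting are not given in the sources used here. Positions, exon lengths and overlaps were looked up by symbol in GENCODE M21 (GRCm38), which matched all 10 members, and promoter windows in RefSeq. Summed exons of all transcripts served as gene length.

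The members and lists were chosen with earlier results of these data known. Notch3IC was compared with Control by edgeR 4.0.16 in R 4.3.3 (TMM factors, filterByExpr by condition, robust quasi-likelihood F test), as the study names no set term. Standard errors are the log2 fold change divided by the square root of F. The biological coefficient of variation was 26.3%, and 14.1% when blocked on the set. Pairing was checked once: same-set deviations from the group means correlated at 0.398 to 0.804, and crossed ones at -0.501 to 0.372, so blocked values are given where they change a call. Members under the count limit were compared by exact permutation of normalized counts, without regard to the matched sets. DESeq2 1.42.0, other scalings and filters, and leaving out libraries or sets were tried, and the fits were tested on simulated data. Named genes were all members, all Notch genes, called genes of the other lists, the 3 of each list most abundant per kilobase over all libraries, and the 5 most like Acta2. Other list genes named in the text, Pcsk7 included, were chosen after their values were seen. Intervals of counts cover counting error only. No 2 libraries held the same values.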

Additional observations from a re-analysis of the deposited data

Results flagged for a closer look

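In groups of 4 lines, a line was looked at again when its gap to the nearest other line exceeded Dixon's 95% limit for the share it takes of the whole range. Of 34 groups searched, over the members, the Notch genes and the library totals, 9 held such a line. The limit's rate of about 1 in 20 holds for independent groups of normally distributed values. These were unlogged counts of lines from shared sets, so that rate does not apply to them.

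Set 1 gave 5 of the 9. Acta2 stood at 73775 normalized counts in the Notch3IC line of Set 1, with the other lines at 14474 to 22549. Tagln stood at 2010.2 in the Control line and 4113 in the Notch3IC line of Set 1, against at most 387 and 505 in the other lines. Tpm2 stood at 3470.0 in the Notch3IC line of Set 1, with the others at 1702 to 1878. Jag1, a Notch ligand gene, stood at 909 in the Control line of Set 1, with the others at 440.1 to 499.

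Set 2 gave 3, all in its Control line. Myh11 stood at 38.2 and Myocd at 1.19 normalized counts, the latter a single read, where the other Control lines had none, and Myl9 stood at 434, with the others at 88.8 to 147. Set 3 gave 1, Notch3 in its Control line at 70.8 normalized counts, with the others at 38.7 to 42.0.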

How the results depend on the processing

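The 423 genes called higher with condition alone became 708 with DESeq2, 645 with the replicate block, and 0 to 702 when a library or set was left out. DESeq2 took in the 17359 genes with at least 1 count and did not give each an adjusted p. The 92 called lower became 192 with DESeq2, 315 with the replicate block, 48 at an adjusted p under 0.05 and 210 without the fold limit, and 0 to 305 with a library or set left out. Members called higher numbered 1 (Cspg4), 2 with DESeq2 or without the expression filter (Cspg4 and Rgs5), 4 with the replicate block, and 0 to 2 with libraries or sets left out. Over all genes these settings called 423 of 12430, 708 of 17359 with DESeq2, 543 of 17359 without the filter and 645 of 12430 with the block. In the left-out fits the 2 included Rgs5, which entered them through the Notch3IC lines alone, so its calls there add no support. By edgeR the block changed the calls of Acta2, Tagln and Cnn1 among the 6 members tested; by DESeq2 it also changed that of Myh11 (adjusted p 0.880 without and 0.0356 with it). DESeq2 gave no adjusted p for Myocd, nor, without the block, for Tagln. Tagln turned to -0.69 without the Notch3IC line of Set 1 and reached 2.62 without its Control line, and Myl9, at -0.78 without the Notch3IC line of Set 2, turned to 0.54, 0.04 and 0.10 without the Control line of Set 2 and the Notch3IC lines of Sets 3 and 4. Normalization by RLE, upper quartile or library totals changed no call of a member. Alternatives within the block were added after the data were seen: leaving out 1 set gave 46 to 904 genes higher, 22 to 426 lower and 0 to 5 members, with 0 members without Set 1, 3 or 4. The 5, without Set 2, included Rgs5, which entered that fit through the Notch3IC lines alone. The causes were not tested. Of the list genes called by condition alone, none kept its call without Set 3 or without Set 4, where 1 and 0 genes of all tested were called higher. Depth limits Myh11, Myocd, Des and Rgs5, whose counts lay between 0 and 68 a library.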
